A study of Mus musculus with 9 samples.

Results

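The urea cycle and the enzymes that carry ammonia as glutamine, glutamate or asparagine were followed in mouse liver with and without a high-fat diet. The set was chosen by name. It was made of the 10 genes Nags, Cps1, Otc, Ass1, Asl and Arg1 of the urea cycle and Gls2, Glul, Glud1 and Asns of the glutamine, glutamate and asparagine reactions. All probe sets that the platform annotation pairs with exactly 1 of these symbols were taken, which gave 14 probe sets of 9 genes among 41782 probe sets of 17514 named genes. The urea cycle had 8 probe sets of 6 genes and the other enzymes 6 probe sets of 3 genes. Gls2 was not analysed here, since no probe set was paired with that symbol alone.

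Liver RNA came from c57Bl/6 mice on a high-fat diet (HFD, 5 arrays; 21% fat, 42% of calories from fat, Harlan-Teklad) or on the control diet (4 arrays), and all were kept on chow before the study. The labels give no age, sex, time on the diet, batch or composition of the control diet. Whether the arrays came from different animals is not stated, and the p-values below then rest on a spread between arrays that may be technical. Values are on the log2 scale, relative to a baseline set for every probe set separately, so that levels cannot be compared between genes and the labelled tissue could not be checked against the levels of its markers. In bulk liver, fewer cells of a type and less RNA per cell cannot be told apart.

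Liver disposes of ammonia by a pair of routes. Hepatocytes near the portal vein make urea: Nags makes the activator of Cps1, Cps1 fixes ammonia as carbamoyl phosphate in mitochondria, Otc passes it to ornithine to give citrulline, Ass1 joins citrulline to aspartate, Asl splits off arginine, and Arg1 releases urea. Hepatocytes in a narrow rim around the central vein hold Glul, glutamine synthetase, which takes up the ammonia that escaped. Glud1, glutamate dehydrogenase, exchanges ammonia with glutamate, and Asns, asparagine synthetase, moves the amide nitrogen of glutamine to aspartate. Asns is a known target of the amino acid response, in which the transcription factor Atf4 acts when amino acids run short.

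Asns fell in HFD livers, and no other member passed the test. Both Asns probe sets were lower, the only 2 of the 14 member probe sets with an adjusted p under 0.05 in limma (Benjamini-Hochberg over all probe sets). Over all probe sets 3.26% passed (1363 of 41782): 2.04% of all probe sets were higher and 1.23% lower. None of the 8 urea cycle probe sets passed. At an unadjusted p under 0.05 there was 1 of these 8 and 4 of the 6 others, against 16.4% of all probe sets. These 4 were both probe sets of Asns, which were lower, and both of Glul, which were higher. The median difference was 0.10 for the urea cycle and -0.19 for the glutamine, glutamate and asparagine enzymes, and -0.01 over all probe sets. The value of -0.19 is the midpoint of the Glud1 probe sets (-0.29 and -0.08), which did not pass, and does not describe a shared shift of these enzymes. The members were chosen with earlier results of these data known, so that these counts and medians describe them and test nothing about the set.

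Because Asns is the only member that passed the test, its promoter is shown. The window runs from 250 bases before to 50 bases after the start of the gene (RefSeq, GRCm38.p6, chr6:7693160-7693459, minus strand). Capitals mark the match to TGATGNAA, the composite element of C/EBP and ATF factors through which amino acid shortage is known to act on this gene.
Asns: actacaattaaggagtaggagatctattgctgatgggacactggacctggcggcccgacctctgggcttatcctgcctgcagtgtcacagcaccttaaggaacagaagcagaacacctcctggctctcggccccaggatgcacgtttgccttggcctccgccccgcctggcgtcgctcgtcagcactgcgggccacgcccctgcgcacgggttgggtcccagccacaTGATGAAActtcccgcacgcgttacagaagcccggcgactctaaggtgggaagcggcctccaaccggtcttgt

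The match starts at position -23 from the start site. Both strands were searched, and TGATGNAA was in 3.97% of the 32851 mouse promoters of the same length. It was in none of the promoters of the 5 other members that could be matched, Nags, Otc, Ass1, Glul and Glud1. With 3.97% of all promoters, none in 5 is near the background. The element was already known to act on Asns, so that its match there was foreseen and sets the gene apart in no new way. The Asns window also held TGACG, part of the cyclic AMP response element, on the minus strand, and AGAACA, part of the element of the glucocorticoid receptor. TGACG was in 20.8% of all promoters and in that of Nags, and AGAACA was in 19.0% of all promoters and in no other matched member. TGACGTCA, the full cyclic AMP response element (1.79% of promoters), of which TGACG is a part, TTGCNNAA, a C/EBP element (10.8%), and TATAAA, the TATA box (13.6%), were not found in any of the 6 windows. A match of letters is a description and not a site in use.

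The Asns probe set of the plain _at type, designed for a single gene, stood at -0.18, -0.09, -0.12, -0.18 and -0.32 in HFD replicates 1 to 5, against 0.92, 0.58, 1.27 and 1.49 in control replicates 1 to 4. The HFD arrays lay close together and below every control array, and the control arrays were spread more widely. The means were -0.18 ± 0.09 (SD, n = 5) in HFD and 1.07 ± 0.40 (SD, n = 4) in control. Asns therefore fell by 1.24 ± 0.16 on this probe set (standard error of the fit, 2.37-fold), with a limma adjusted p of 0.00342. The 95% interval of the difference ran from -66.9% to -46.1%, and 99.4% of all probe sets had a difference of this size or smaller. The fit takes 1 spread for both groups, while the SD was larger in control, the smaller group. The standard error and p may therefore be too small and the interval too narrow, and unequal spread was not fitted.

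The other Asns probe set, of the x_at type, is one that can also bind related transcripts. It stood at -0.06, -0.15, -0.10, -0.44 and -0.40 in HFD replicates 1 to 5, against 0.34, 0.41, 1.16 and 1.61 in control replicates 1 to 4. Again the groups did not overlap, and control replicates 3 and 4 were the highest arrays on both probe sets. Here Asns fell by 1.11 ± 0.24 (2.15-fold, limma adjusted p of 0.0306). The SD was 0.18 in HFD and 0.61 in control, so that the same limit of the fit applies. The exact permutation p, two-sided over all 126 splits of the arrays, was 0.0159 for each probe set, the smallest these group sizes can give. Over all probe sets every HFD array lay below every control array in 3.50%, and above in 4.50%.

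The call of the plain Asns probe set held when any 1 array was left out (highest limma adjusted p of 0.0152, differences from -1.41 to -1.10). That of the x_at probe set did not. It was lost without control replicate 3 (adjusted p of 0.100) and without HFD replicate 2, 3, 4 or 5 (adjusted p of 0.0557, 0.0675, 0.0559 and 0.0537), with differences between -1.29 and -0.86 over all arrays left out.

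**Figure D1:**
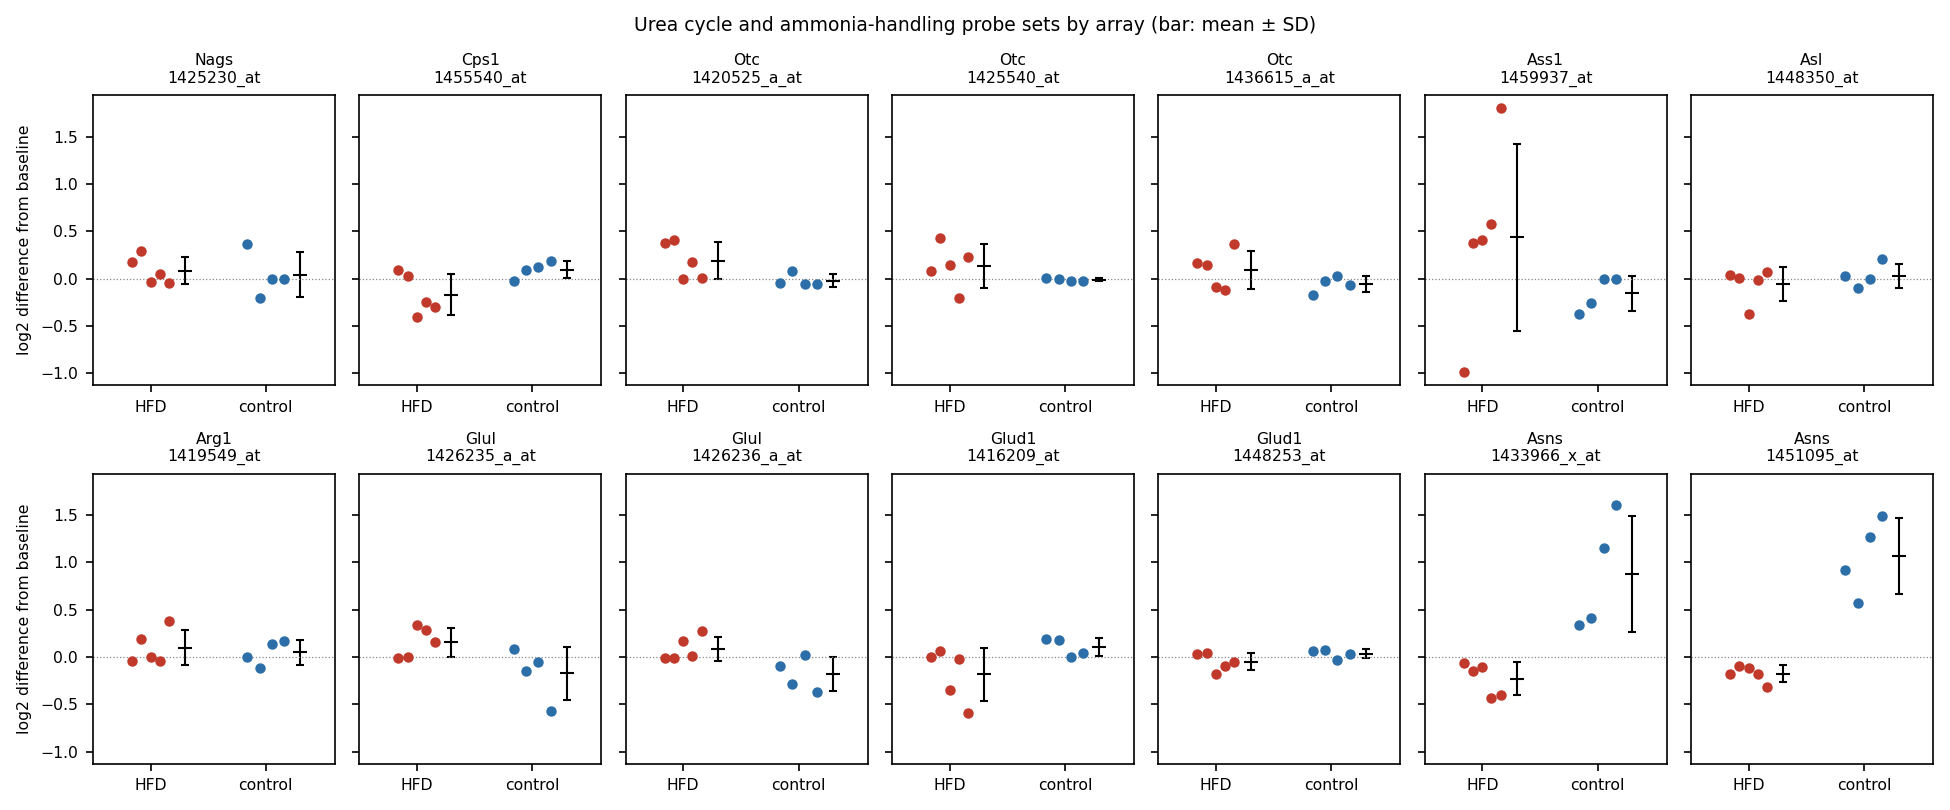
Log2 difference from the baseline of each probe set (y axis) for the 14 member probe sets, 1 point per array, HFD on the left and control on the right of each panel, with the mean ± SD beside the points. The 5 HFD arrays lie below the 4 control arrays on both Asns probe sets, while the groups overlap on the other 12.

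In the urea cycle, the mitochondrial steps gave small differences of both signs. Nags stood at 0.17, 0.29, -0.03, 0.05 and -0.05 in HFD replicates 1 to 5, and control replicates ran from -0.21 to 0.37, so that the controls enclosed every HFD array. Its difference was 0.05 ± 0.12 (limma adjusted p of 0.900). Cps1, which commits ammonia to the cycle, stood at 0.09, 0.02, -0.41, -0.25 and -0.30 in HFD replicates 1 to 5, against -0.02, 0.10, 0.12 and 0.19 in control replicates 1 to 4. HFD replicates 3, 4 and 5 were below all controls, and HFD replicates 1 and 2 lay among them.

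The Cps1 difference was -0.26 ± 0.11, with an unadjusted limma p of 0.0367 and an adjusted p of 0.262. The exact permutation p was 0.0794. The 95% interval ran from -29.7% to -1.35%, so that a fall as large as that of Asns lay outside it. Cps1 was the only urea cycle probe set with an unadjusted p under 0.05.

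Otc was read by 3 probe sets, and each had a small positive difference. On the Otc probe set with the largest difference the HFD arrays stood at 0.37, 0.41, -0.005, 0.17 and 0.005 and the control arrays at -0.05, 0.08, -0.06 and -0.06. HFD replicates 1 and 2 were the highest, and HFD replicates 3 and 5 lay among the controls. The difference was 0.21 ± 0.10 (limma adjusted p of 0.342). On the other probe sets it was 0.15 ± 0.11 each (adjusted p of 0.579 and 0.535), and the arrays that were highest were not the same: HFD replicate 2 led on one at 0.43, and HFD replicate 5 led on the other at 0.37.

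The cytosolic steps did not pass either. Ass1 had 1 probe set of its own, which stood at -0.99, 0.38, 0.41, 0.58 and 1.80 in HFD replicates 1 to 5, against -0.37, -0.26, 0.00 and 0.00 in control replicates 1 to 4. HFD held both the lowest and the highest array, and the spread within groups (0.76) was larger than that of 99.3% of all probe sets, whose median was 0.15. Its difference of 0.59 ± 0.41 (limma adjusted p of 0.534) is therefore poorly measured, with a 95% interval from -20.0% to 184.0%. Another Ass1 probe set is shared with Gm5424 in the annotation and was left out by the rule. Its difference had the opposite sign, -0.22 ± 0.13 (adjusted p of 0.466), with HFD replicates 3 and 5 lowest at -0.56 and -0.37.

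Asl stood at 0.04, 0.005, -0.37, -0.01 and 0.07 in HFD replicates 1 to 5, and its control arrays ran from -0.10 to 0.21. All HFD arrays but replicate 3 lay among the controls, and the difference was -0.09 ± 0.11 (limma adjusted p of 0.746). Arg1, the last step, ran from -0.05 to 0.38 in HFD and from -0.12 to 0.17 in control. Its difference was 0.05 ± 0.11 (adjusted p of 0.879), with a 95% interval from -12.3% to 21.8%. A p that misses the threshold does not show equal levels. For the urea cycle probe sets other than that of Ass1, the intervals reached from -29.7% for Cps1 to 35.6% for Otc.

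**Figure D2:**
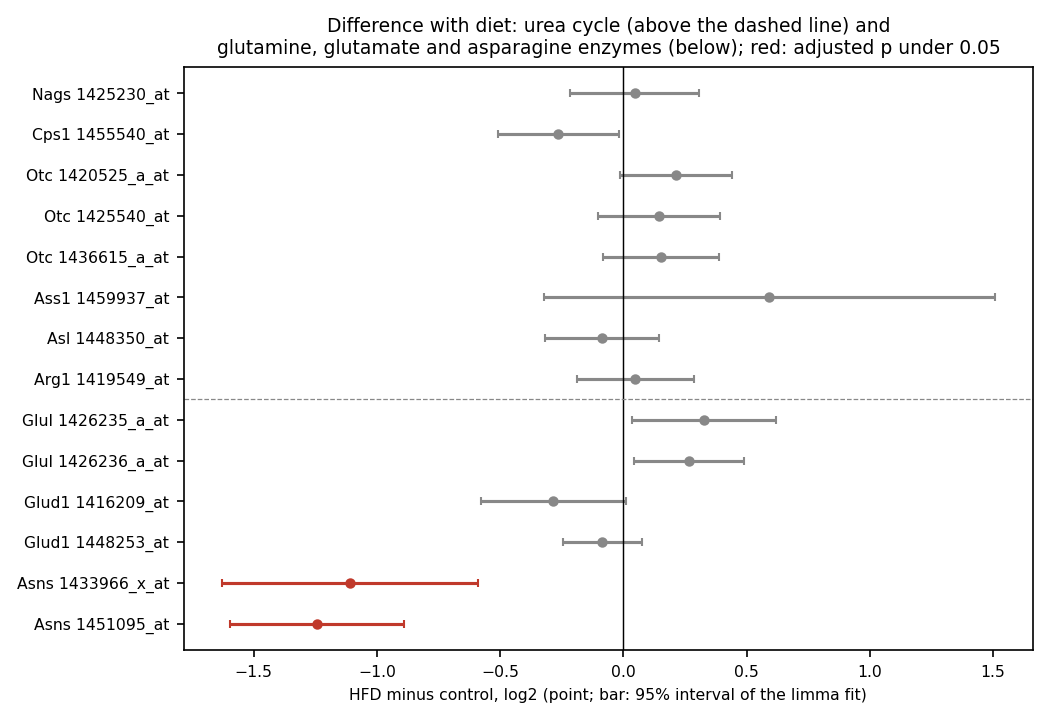
HFD minus control on the log2 scale (x axis) for each member probe set, with the 95% interval of the limma fit. Asns, at -1.24 and -1.11, is the only gene past an adjusted p of 0.05 (red); the 8 urea cycle probe sets above the dashed line lie between -0.26 and 0.59.

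Glul, glutamine synthetase, had a positive difference on both of its probe sets that did not pass after adjustment. On one it stood at -0.005, 0.005, 0.34, 0.28 and 0.16 in HFD replicates 1 to 5, against 0.08, -0.15, -0.05 and -0.57 in control replicates 1 to 4. On the other it stood at -0.01, -0.01, 0.17, 0.01 and 0.27 in HFD, against -0.09, -0.28, 0.02 and -0.37 in control. The groups overlapped on both, with HFD replicates 1 and 2 close to the baseline and control replicate 4 the lowest array.

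The Glul differences were 0.33 ± 0.13 and 0.27 ± 0.10, with unadjusted limma p-values of 0.0311 and 0.0240 and adjusted p-values of 0.241 and 0.213. The exact permutation p was 0.0635 for each. The intervals ran from 2.53% to 53.8% and from 2.99% to 40.6%. Both probe sets read the same gene and the same arrays, so that they are not independent.

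Glud1 had negative differences, unequal in size between its probe sets. On the more variable one it stood at -0.003, 0.06, -0.35, -0.02 and -0.59 in HFD replicates 1 to 5, against 0.20, 0.18, 0.003 and 0.05 in control replicates 1 to 4. HFD replicates 3 and 5 were far below the rest, and HFD replicate 2 lay among the controls. The difference was -0.29 ± 0.13 (limma adjusted p of 0.321). On the other, whose values varied little (spread within groups of 0.07), it was -0.08 ± 0.07 (adjusted p of 0.622), and HFD replicate 3 was the lowest at -0.18.

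Cps1, the more variable Glud1 probe set and the shared Ass1 probe set were lowest in HFD replicates 3 and 5. These are also arrays that stand apart over all probe sets. The standard deviation of all values was 0.33 in HFD replicate 5 and 0.27 in HFD replicate 3, against 0.22 to 0.24 in the other 7 arrays, and array weights were 0.46 and 0.74, with 0.84 to 1.35 in the others. Without HFD replicate 5 the Cps1 difference was -0.23 (limma adjusted p of 0.370) and that of the more variable Glud1 probe set was -0.18 (adjusted p of 0.434), so that neither passed with or without it. Without it the Asns differences were -1.21 and -1.07 (adjusted p of 0.00648 and 0.0537). No arrays held identical values.

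Genes that serve the urea cycle in mitochondria included some that rose. In the list of mitochondrial partners and carriers, 2 of 15 probe sets passed, both higher, in 2 of 9 measured genes. As a reference for this and the later lists, 3.26% of all probe sets passed. The median difference of this list was -0.05. Car5a, the mitochondrial carbonic anhydrase that supplies bicarbonate to Cps1, stood at 0.35, 0.23, 0.71, 0.34 and 0.80 in HFD replicates 1 to 5, against -0.23, -0.30, -0.41 and -0.59 in control replicates 1 to 4. The groups were well apart. Car5a rose by 0.87 ± 0.13 (limma adjusted p of 0.00652), and the call held when any 1 array was left out (highest adjusted p of 0.0260).

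Sirt5, the deacylase known to act on Cps1, rose by 0.48 ± 0.10 on 1 of its 3 probe sets (limma adjusted p of 0.0234). HFD arrays ran from 0.13 to 0.48 and control arrays from -0.39 to -0.13 on that probe set. The call was lost without HFD replicate 3 or control replicate 2 or 3 (highest adjusted p of 0.0749), and the list then had 1 gene higher. The other Sirt5 probe sets had differences of 0.20 ± 0.08 and -0.05 ± 0.08. The ornithine carrier Slc25a15 and the aspartate-glutamate carrier Slc25a13, named here after their values were seen, did not pass. On the Slc25a15 probe set with the larger difference it was -0.43 ± 0.23 (adjusted p of 0.394), with HFD replicates 3 and 5 at -0.98 and -0.90 and the other 7 arrays between -0.08 and 0.14.

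Several enzymes that release nitrogen from amino acids changed, most of them upward. In that list 8 of 42 probe sets were higher and 1 lower, which were 6 and 1 of 26 measured genes, and the median difference was 0.07. Gpt, alanine aminotransferase, rose by 0.48 ± 0.08 on 1 of 2 probe sets (limma adjusted p of 0.00910). Its HFD arrays ran from 0.14 to 0.30 and its control arrays from -0.40 to -0.14. Uroc1, urocanase of histidine breakdown, rose by 0.66 ± 0.13 (adjusted p of 0.0232) and passed on both probe sets, and Dbt, a subunit of the branched-chain keto acid dehydrogenase, rose by 0.54 ± 0.11 (adjusted p of 0.0270).

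Asrgl1, an enzyme that breaks down asparagine, moved opposite to Asns. On the Asrgl1 probe set of lowest p it stood at -0.06, 0.06, 0.57, 0.36 and 0.26 in HFD replicates 1 to 5, against -0.48, -0.37, -0.46 and -0.57 in control replicates 1 to 4. The groups did not overlap on any of its 4 probe sets, where over all probe sets every HFD array lay above every control array in 4.50%. These 4 read the same gene on the same arrays, so that they are not independent. Asrgl1 rose by 0.70 ± 0.12 on this one (limma adjusted p of 0.0126) and by 0.67 ± 0.12 on another (adjusted p of 0.0128), and had differences of 0.45 ± 0.12 and 0.39 ± 0.11 on the others (adjusted p of 0.0657 and 0.0944). Its call on the probe set of lowest p held when any 1 array was left out (highest adjusted p of 0.0419).

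The aspartate aminotransferases, which feed aspartate to Ass1 and to Asns, differed in sign, as seen after their values were known. Got1, the cytosolic enzyme, fell by 1.18 ± 0.27 (limma adjusted p of 0.0424), with HFD arrays at -0.25, -0.28, -0.83, 0.55 and -0.64 and control arrays at 0.25, 1.10, 1.08 and 1.12. HFD replicate 4 lay above control replicate 1. Got2, the mitochondrial enzyme, rose by 0.38 ± 0.09 on 1 of its 4 probe sets (adjusted p of 0.0425), while the other differences lay between -0.01 and 0.05. Leaving out 1 array moved the count of this list between 2 and 7 genes higher and between 0 and 1 lower. Gpt held throughout. Uroc1 was lost without HFD replicate 3 or control replicate 1 or 2 (highest adjusted p of 0.0747), and Dbt without any 1 control array or without HFD replicate 1, 2 or 3 (highest adjusted p of 0.0844). The call of Got1 was lost without control replicate 2, 3 or 4 or HFD replicate 1, 2, 3 or 5 (highest adjusted p of 0.132), and that of Got2 without any 1 array other than HFD replicate 4 (highest adjusted p of 0.123).

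**Figure D3:**
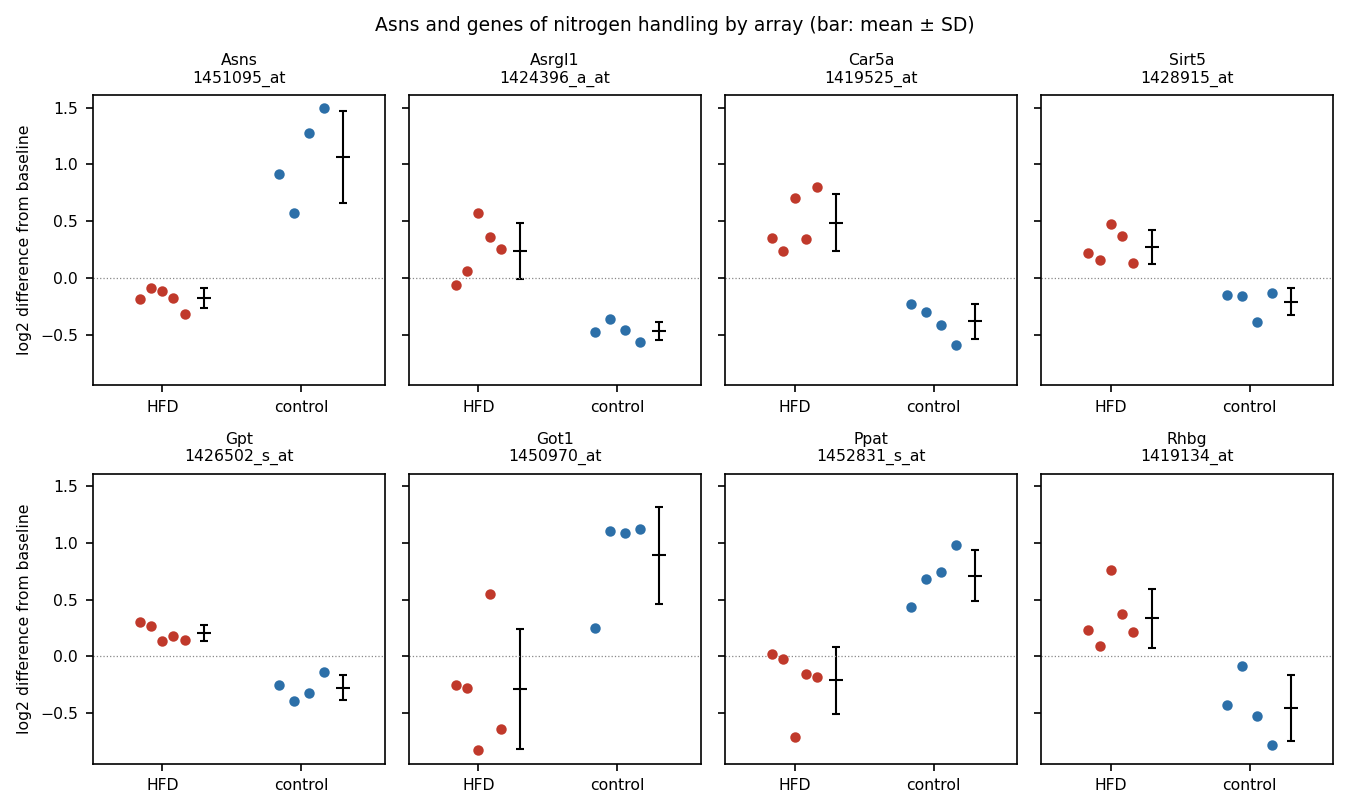
Log2 difference from the baseline (y axis) of Asns and 7 genes of nitrogen handling, 1 point per array, HFD left and control right in each panel, with the mean ± SD beside the points. Asns, Got1 and Ppat are lower in HFD and Asrgl1, Car5a, Sirt5, Gpt and Rhbg higher, and only the Got1 groups overlap. The probe sets shown were picked from those past the threshold, so that the separation follows largely from that choice. Over all probe sets every HFD array lay above every control array in 4.50% and below in 3.50%.

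Among enzymes that use glutamine for synthesis, 1 of 22 probe sets passed (4.55%, against 3.26% of all probe sets). This was a probe set of Ppat, whose product uses glutamine in the opening step of purine synthesis. It fell by 0.92 ± 0.16 (limma adjusted p of 0.0117), with HFD arrays from -0.71 to 0.02 and control arrays from 0.43 to 0.98, and the call held when any 1 array was left out. The other Ppat probe sets differed by -0.41 ± 0.13 and 0.07 ± 0.08 (adjusted p of 0.131 and 0.704). The median difference of the list was 0.00. Among ornithine, arginine and polyamine enzymes 1 of 26 probe sets was higher and 2 lower, with a median of -0.06. Gamt and Gatm, the enzymes of creatine synthesis, which draws on arginine, differed in sign: Gamt rose by 0.32 ± 0.08 (adjusted p of 0.0496) and Gatm fell by 0.77 ± 0.18 (adjusted p of 0.0499). Nos3, the endothelial nitric oxide synthase, fell by 0.51 ± 0.11 (adjusted p of 0.0283). Each of these calls was lost without any 1 control array, and also without HFD replicate 1, 2, 3 or 4 for Gamt, 2, 3 or 5 for Gatm and 1 for Nos3 (highest adjusted p of 0.146, 0.151 and 0.0805 for Gamt, Gatm and Nos3).

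In the list of the amino acid response and serine synthesis, to which Asns is tied through Atf4, 2 of 48 probe sets passed, both higher. They were 4.17% of the list, against 2.04% of all probe sets higher, and the median difference was 0.03. With 1 array left out between 1 and 3 genes were higher, and 1 gene was lower without control replicate 3. With 1.23% of all probe sets lower, a count of 0 lower in a list of this size is near the background. Atf5, a transcription factor of that response, rose by 0.75 ± 0.12 (limma adjusted p of 0.00910). Vldlr, a lipoprotein receptor, rose by 0.58 ± 0.12 on 1 of 6 probe sets (adjusted p of 0.0255), a call lost without control replicate 2, 3 or 4 or HFD replicate 3 (highest adjusted p of 0.0844). Other genes of the list are named here after their values were seen. Atf4 had differences of -0.12 ± 0.15, -0.05 ± 0.08 and -0.08 ± 0.18 on its 3 probe sets, none past the threshold (lowest adjusted p of 0.770). Trib3, which the same response induces, had positive differences of 0.48 ± 0.20 and 0.35 ± 0.18 (unadjusted p of 0.0337 and 0.0806, neither past the threshold after adjustment). In serine synthesis, Psph differed by -0.57 ± 0.17 (adjusted p of 0.102) and Psat1 by -0.14 ± 0.09 and 0.01 ± 0.07.

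**Figure D4:**
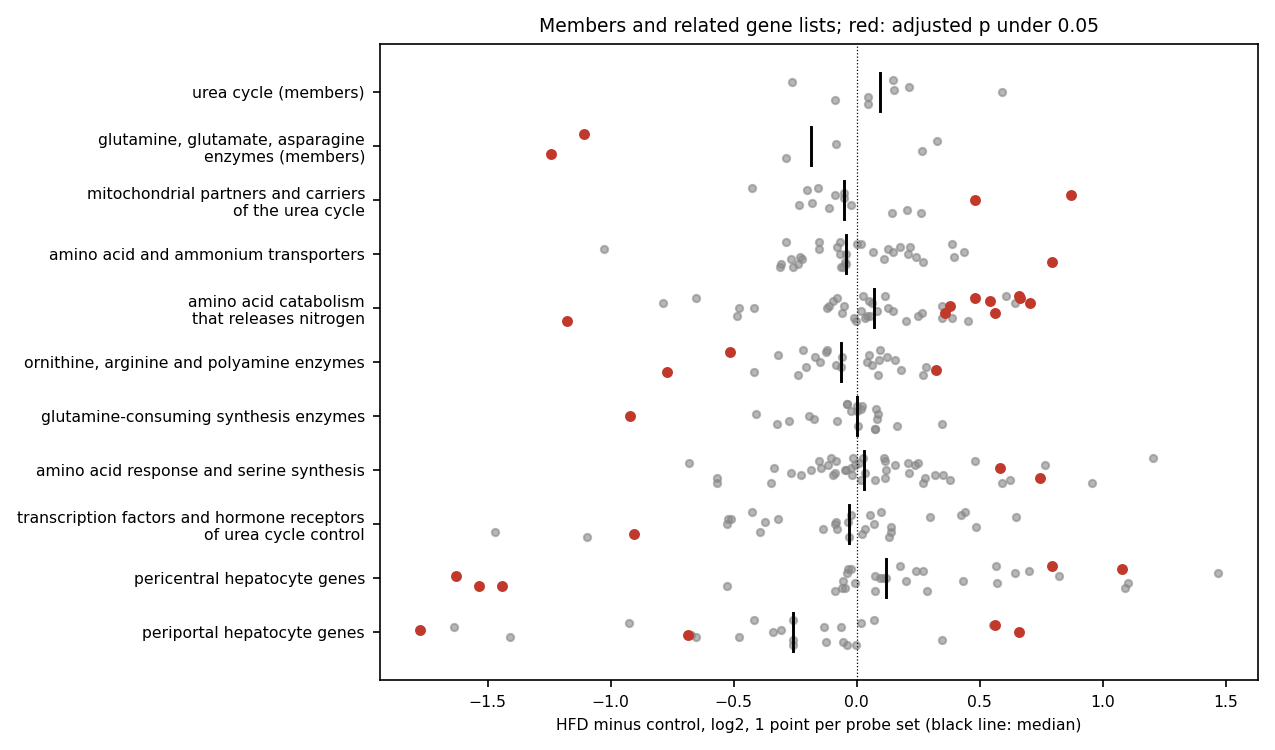
HFD minus control on the log2 scale (x axis) for every probe set of the members and of 9 related gene lists, with the median of each as a black line and probe sets past an adjusted p of 0.05 in red. Asns at -1.24 and -1.11 stands below all other member probe sets, and the lists have calls in both directions or few calls.

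Lists of genes of the zones of the liver lobule had calls in both directions. In the list of genes of hepatocytes around the central vein, where Glul lies, 2 of 33 probe sets were higher and 3 lower, with a median of 0.12. The mean over this list ran from -0.07 to 0.19 in HFD and from -0.10 to -0.04 in control, and HFD replicate 4 alone lay among the controls. Rhbg, an ammonium transporter of the same cells, rose by 0.79 ± 0.16 (limma adjusted p of 0.0240), with HFD arrays at 0.24, 0.09, 0.76, 0.38 and 0.22 and control arrays at -0.43, -0.09, -0.53 and -0.78. It was also the only probe set past the threshold of 34 for amino acid and ammonium transporters (2.94%, against 3.26% of all probe sets). Lgr5, a Wnt pathway receptor of the pericentral cells, rose by 1.08 ± 0.25 on 1 of 2 probe sets (adjusted p of 0.0436). Cyp1a2, a cytochrome P450 of this zone, fell by 1.53 ± 0.17 (adjusted p of 0.00162) and Cyp7a1, of bile acid synthesis, by 1.44 ± 0.24 (adjusted p of 0.0109). The call of Rhbg was lost without control replicate 1, 3 or 4 (highest adjusted p of 0.0774) and that of Lgr5 without control replicate 2, 3 or 4 or HFD replicate 1, 2 or 3 (highest adjusted p of 0.121).

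In the list of genes of the zone around the portal vein, where the urea cycle is highest, 2 of 26 probe sets were higher and 2 lower, with a median of -0.26. The mean over this list ran from -0.28 to 0.04 in HFD and from 0.06 to 0.28 in control. Every HFD array lay below every control array, though the nearest values, 0.04 in HFD and 0.06 in control, were close. The means of the Kupffer cell and macrophage markers and of the blood cell markers were also lower in every HFD array than in every control array. These means are descriptions of lists chosen with earlier results known, and were not tested. Cdh1, E-cadherin, fell by 1.78 ± 0.21 (limma adjusted p of 0.00222) and Igf1, a growth factor, by 0.69 ± 0.10 on 1 of 4 probe sets (adjusted p of 0.00513). Uroc1, which rose, stands in this list as well. Of 30 probe sets of transcription factors and hormone receptors of urea cycle control 1 passed (3.33%, against 3.26% of all probe sets). Hnf4a, a factor known to act on urea cycle genes, fell by 0.91 ± 0.18 on 1 of 4 probe sets (adjusted p of 0.0248) and differed by -0.52 ± 0.25, -0.51 ± 0.25 and -0.14 ± 0.20 on the others. The Hnf4a call was lost without any 1 control array or HFD replicate 3 (highest adjusted p of 0.0813).

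Markers of some other liver cells differed with the diet beside these results, most clearly those of Kupffer cells and macrophages. Of 18 probe sets of Kupffer cells and macrophages 12 fell, in 10 of 13 genes. The mean over the list ran from -1.19 to 0.09 in HFD and from 0.12 to 1.21 in control. The part of these cells in the Asns result was not tested. Leaving out 1 array moved the count between 3 genes (without control replicate 2 or 3) and 12 (without control replicate 4). None of the 14 hepatocyte marker probe sets passed (lowest limma adjusted p of 0.0883), with means from -0.07 to 0.02 in HFD and from 0.01 to 0.08 in control. No cholangiocyte or adipocyte marker passed (7 and 3 probe sets). Of the liver endothelial markers 1 of 15 probe sets fell, with a median of -0.65 and means from -0.83 to 0.26 in HFD and from 0.06 to 0.47 in control, and their part in the fall of Nos3 was not tested. The count of endothelial genes lower was 7 without HFD replicate 4, 3 without HFD replicate 1 and 0 without any other 1 array. Of the stellate cell and fibroblast markers 3 of 18 probe sets rose, in 2 genes, and with 1 array left out between 1 and 2 genes rose and up to 2 fell (without HFD replicate 4). Of the blood cell markers 1 of 6 fell, a count between 0 and 2 with 1 array left out.

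The genes most like Asns and Cps1 from array to array were found by Pearson's r over the 9 arrays after the mean of each group was subtracted, among 32787 probe sets with 1 symbol. For the plain Asns probe set they were 1700023D09Rik, Adam33, A330076H08Rik, Blzf1 and Prrt3, with r between 0.95 and 0.97. For Cps1 they were Aldh6a1, a mitochondrial enzyme of valine breakdown, Pclo, Yipf6, Tnk1 and Ryr3, with r between 0.95 and 0.99. None of these 10 genes passed the threshold for diet on the probe set concerned. With 9 arrays the top of so many probe sets is high by selection, and these names are a description only.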

How the data were processed

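Liver RNA was measured on Affymetrix expression arrays, per the labels. The deposited log2 values entered the fits unchanged. RMA summaries, quantile normalization and a shift to the median of all samples for each probe set are the authors' steps, per the series' design text. On the plain Asns probe set all 5 HFD values lay below 0, the highest at -0.09, so that the baseline was not the median of these 9 arrays. No version of RMA is given in the submitters' processing notes. The log base is not given in the sources used here, and values were read as log2 because RMA returns log2 and they ran around 0. Of 41842 rows, 60 were control probe sets and were dropped. By the platform annotation 32801 probe sets had 1 symbol, 862 several and 8119 none. Centring removes levels, so dim probe sets could not be filtered, and signal near saturation, which would compress differences of abundant transcripts, could not be seen. The number of arrays limits the precision.

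HFD minus control was fitted for every probe set with lmFit and eBayes of limma 3.58.1 under R 4.3.3 (two-sided, Benjamini-Hochberg over 41782 probe sets, threshold 0.05, no covariate), with an exact permutation test over all 126 splits of the arrays for single values. The fit was tested on simulated data, whose settings and outcome are not given here, so that no result rests on that test. The probe set was the unit because the members were all probe sets of a gene. Members, lists and motifs were chosen with earlier results of these data known. Named are all members, the called genes of each list up to 4 by lowest p on the probe set of lowest p, and the 5 genes most like the leading member of each arm; genes named after their values were seen are marked as such. Promoters were matched by symbol for 6 of the 9 measured members. Alternatives covered the unit, scaling, filters, variance model, probe set types, arrays left out and the call rule.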

Additional observations from a re-analysis of the deposited data

Results flagged for a closer look

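Of the members and the named genes of the lists, 5 groups out of 82 examined held an array far from the rest of its group, and chance flags about 1 in 20. Among the members, the Otc probe set with the largest difference stood at 0.084 in control replicate 2, with the other controls between -0.06 and -0.05. Asl stood at -0.37 in HFD replicate 3, with the other HFD arrays between -0.01 and 0.07. Among the related genes, Ppat stood at -0.71 in HFD replicate 3, with the others between -0.18 and 0.02. Sirt5 stood at -0.39 in control replicate 3, with the others between -0.16 and -0.13, and Atf5 at -0.59 in the same array, with the others between -0.24 and -0.17.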

How the results depend on the processing

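No paired analysis was possible because the labels pair no HFD array with a control array. The replicate numbers used here follow the order of the samples within each group, and equal numbers do not mark a pair. Under all 22 alternatives no urea cycle probe set passed, and no Glul or Glud1 probe set did. The plain Asns probe set kept its call under every alternative that held this probe set or its gene's average (adjusted p from 0.00115 to 0.0383). Of the glutamine, glutamate and asparagine probe sets, 1 in place of 2 passed with probe sets averaged per gene, with the probe set of largest SD per gene, with the unmoderated statistic, without _x_at and _s_at probe sets and at an adjusted p under 0.01, and 1 to 2 with 1 array left out. By construction the per-gene alternatives leave 1 Asns value, and the other Asns probe set is itself an _x_at probe set. The count over all probe sets, 1363, became 905 (probe sets averaged per gene, over 17514 genes), 427 (unmoderated statistic), 369 (adjusted p under 0.01) and 849 (at least 1.5-fold), and ran from 546 (without control replicate 2) to 1481 (without HFD replicate 4) with 1 array left out; it was 673 without control replicate 3, 830 without control replicate 4 and 729 without HFD replicate 3. The cause was not tested. On the _x_at probe set of Asns the difference of -1.11 lost its call with the unmoderated statistic (adjusted p of 0.137). The sign of the difference changed under 3 alternatives for Arg1 (-0.04 to 0.09) and under 2 for Nags (-0.04 to 0.19), and for no other member.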

Other observations

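Among glutamine carriers and enzymes of tyrosine and histidine breakdown, some are named here after their values were seen. Of these only Uroc1 passed the test. Slc38a2, a glutamine carrier that amino acid shortage is known to induce, differed by -1.03 ± 0.41 on the probe set with the largest difference of 3 (limma adjusted p of 0.239). Its HFD arrays stood at -1.74, -1.21, -0.63, -0.26 and 0.57 and its control arrays at -0.32, 0.26, 0.90 and 0.66, so that the groups overlapped widely. Slc38a3, the main glutamine carrier of hepatocytes, differed by 0.15 ± 0.14 and 0.11 ± 0.19 on its probe sets (adjusted p of 0.678 and 0.833). Slc38a7, a lysosomal glutamine carrier, differed by 0.40 ± 0.10 (adjusted p of 0.0537). Tat, tyrosine aminotransferase, differed by -0.79 ± 0.22 (adjusted p of 0.0868), and Hal, histidase, by -0.66 ± 0.19 (adjusted p of 0.101), where Uroc1, the next step of histidine breakdown, rose by 0.66 ± 0.13 (adjusted p of 0.0232).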
